A study of Mus musculus with 4 samples.

Results

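Expression of 9 lipoprotein genes was measured in the caecum of apoE knockout and wild-type mice: *Apoe*, the gene knocked out, the apolipoprotein genes *Apob*, *Apoa1*, *Apoa4*, *Apoc1*, *Apoc2* and *Apoc3*, and *Mttp* and *Apobec1*, whose products load and edit apolipoprotein B. The 9 genes were listed by name, and each had 1 probe set that carried a single gene symbol, of 23521 such probe sets for 22180 genes on the array. The 4 groups were apoE KO with prebiotics, apoE KO without prebiotics, wild type (WT) with prebiotics and WT without prebiotics. Every group, controls included, consisted of C57Bl/6 mice aged 21 weeks on feed depleted in n-3 PUFA (polyunsaturated fatty acids). Prebiotics (OraftiP95) were supplied during the final 15 days, with a daily dose of 250 mg for each mouse. RNA of 6 mice per group, chosen on RNA quality, was pooled and hybridised to 1 Affymetrix array, so each group is 1 sample and the spread between mice is not seen. The labels name neither the knockout allele nor the sex of the mice.

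Lipoproteins carry fat and cholesterol through lymph and blood. Enterocytes build chylomicrons around a single copy of apolipoprotein B, to which microsomal triglyceride transfer protein (*Mttp*) adds lipid, and in mouse intestine the deaminase *Apobec1* edits the *Apob* mRNA to give the short form of the protein. The small exchangeable apolipoproteins join the particle surface, where apoC-II activates lipoprotein lipase, apoC-III restrains clearance, and apoE is the ligand for uptake of remnants by liver receptors. Fat absorption is a task of the small intestine, and the caecum lies beyond it.

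The diet labels of the WT arrays conflict: on each, 3 fields give the diet of its title and 1 field, the description, gives the opposite diet. The arrays are called here by their titles, and diet results are given both ways where this changes them. The genotype labels do not conflict. Array medians lay between 2.92 and 2.93 log2 units, and values near them are close to background. All 10 caecal and colonic enterocyte markers and all 10 general epithelial markers exceeded the array's 75th percentile on every array. Of 15 measured small-intestinal enterocyte markers 6 did so, among them *Fabp2* at 11.53 to 11.68, and 13 passed the expression filter. Lactase (*Lct*), a small-intestinal enzyme, did not pass it.

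**Figure D1:**
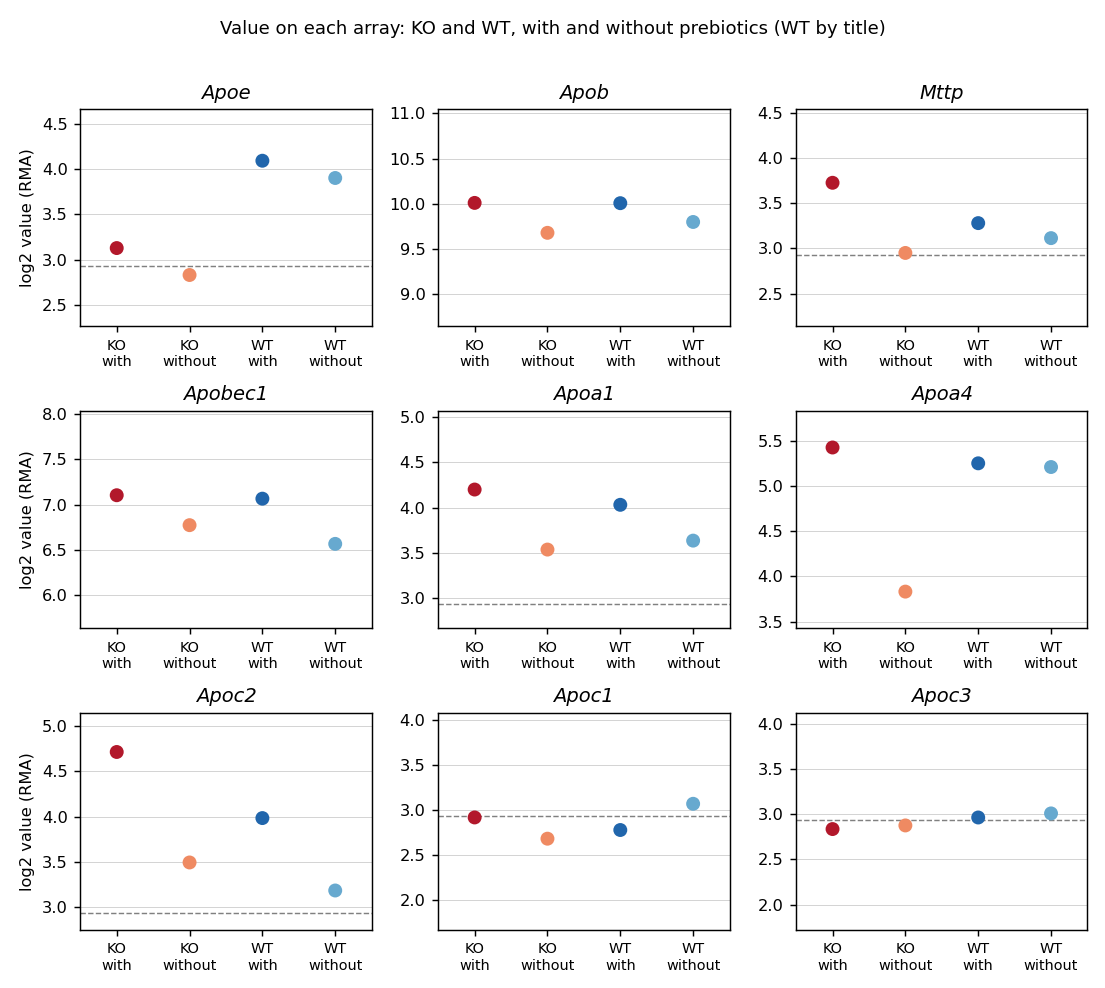
Log2 values (y axis, each panel spanning the same number of log2 units) of the 9 genes on the KO arrays with and without prebiotics and the WT arrays titled with and without them; each point is 1 pooled array, and the dashed line marks the highest array median, 2.93, where it lies in the panel. Apoe is lower on both KO arrays, Apoa4 is low on the KO array without prebiotics alone, and Apoc1 and Apoc3 lie along the dashed line.

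*Apoe* had log2 values of 3.13 and 2.83 on the KO arrays with and without prebiotics, against 4.09 and 3.90 on the WT arrays titled with and without them. Both KO values lay below both WT values, and in KO the signal was near background. KO minus WT was -1.02 on the log2 scale (SE 0.16, 2 arrays per genotype), with an unadjusted p of 0.000299 and a limma adjusted p of 0.78. With KO values this near background, the size of the difference is limited by the background itself. It did not pass at an adjusted p under 0.05, and 0% of the 13083 genes did so in either direction. At an unadjusted p under 0.05 it was the only one of the 9 genes, beside 3.29% of all tested genes. With prebiotics as a block and WT by title, the same difference had a limma adjusted p of 0.0355. In that fit 0.0611% of genes were called higher, 0.0306% lower, and 6.84% had an unadjusted p under 0.05, while with the WT pair exchanged 0 were called and 1.89% had such a p. For *Apoe* the limma adjusted p ranged from 0.0355 to 1 over the alternatives that tested it. *Apoe* did not reach the 75th percentile on any array, so the filter at that limit left it out. The position of the probe set is not known here, and one outside the deleted stretch need not show the deletion. As these are tissue RNA pools, fewer cells of a type and less RNA per cell cannot be told apart.

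Macrophages are a known source of apoE. Of 11 measured macrophage markers, 10 were higher and 1 lower in KO, with 0 past the test, and their summed level was 8.47 and 8.51 log2 units on the KO arrays with and without prebiotics, against 8.45 and 8.05 on the WT arrays. With WT by title, KO was above WT for 54.2% of all genes compared with prebiotics and 51.1% without. The mannose receptor *Mrc1* had a KO minus WT difference of 0.99 and the complement gene *C1qb* one of 0.74, with *Cd163* at 0.45, *Cx3cr1* at 0.34, *Cd68* at 0.25 and *C1qc* at 0.004. The 1 lower marker was *Lyz2* (-0.11), which had the highest signal of the list, 6.92 and 6.97 on the KO arrays, against 7.17 and 6.95 on the WT arrays. *Mrc1* had 5.21 and 5.26 on the KO arrays, against 4.91 and 3.59 on the WT arrays, and *C1qb* 6.10 and 6.29, against 5.85 and 5.06, so that the WT array titled without prebiotics was lowest for both. Without that array the median difference of the macrophage markers was 0.13, against 0.25 with it. Enteric glia, another known source, were represented by markers near background: *Gfap*, *Sox10* and *Fabp7* did not exceed 3.34 on any array, while *Erbb3*, at 9.25 to 9.42, is also expressed by epithelium.

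*Apoe* lies on chromosome 7 in a run of apolipoprotein genes in the order *Apoc2*, *Apoc4*, *Apoc1*, *Apoe*, followed by the mitochondrial import gene *Tomm40*, per the RefSeq table of GRCm38.p6. The adjoining genes that were measured had smaller differences. Genes further from *Apoe* on the chromosome were not examined by position, so these values do not describe the wider region. *Tomm40* differed by 0.01 (SE 0.13) and *Apoc1* by -0.12 (SE 0.15). *Nectin2*, *Bcam*, *Cblc* and *Bcl3*, the next genes beyond *Tomm40*, differed by between -0.01 and 0.03. On the other side, *Clptm1* differed by -0.10, *Relb*, a subunit of NF-kappaB, by -0.31 (SE 0.17) and *Clasrp* by -0.29 (SE 0.14). None of these adjoining genes passed the test. The genes whose profile over the 4 arrays was closest to that of *Apoe* were *Sfn* (distance 0.26 log2 units), the glutamine transporter *Slc1a5* (0.31) and the urokinase receptor *Plaur* (0.36). *Slc1a5* had 6.28 and 6.26 on the KO arrays, against 7.46 and 7.48 on the WT arrays, so its groups did not overlap either. *Plaur* had 3.43 and 3.47, against 4.28 and 4.12. The chromosome positions of these genes were not compared with that of *Apoe*.

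*Apob*, the structural protein of chylomicrons, had the values 10.01 and 9.68 on the KO arrays with and without prebiotics, against 10.01 and 9.80 on the WT arrays. It exceeded the 75th percentile on all 4 arrays and varied by 0.33 log2 units over them. The genotypes overlapped (KO minus WT -0.06, SE 0.14), and both arrays with prebiotics lay above both without. *Apobec1*, the enzyme that edits *Apob* mRNA, had 7.10 and 6.77 on the KO arrays, against 7.06 and 6.56 on the WT arrays. It too was well measured, overlapped between genotypes (0.12, SE 0.20) and lay higher on both arrays with prebiotics.

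*Mttp* was near background, with 3.73 and 2.95 on the KO arrays with and without prebiotics, against 3.28 and 3.11 on the WT arrays. Its highest value was that of the KO array with prebiotics, and its lowest that of the KO array without. The transfer protein works as a dimer with the disulfide isomerase encoded by *P4hb*, which had 9.84 and 9.79 on the KO arrays, against 9.81 and 9.92 on the WT arrays. *P4hb* has other functions in protein folding, and its KO minus WT difference was -0.05 (SE 0.10).

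*Apoa4*, a chylomicron surface protein secreted by enterocytes, varied most of the 9 genes, by 1.59 log2 units. It had 5.43 and 3.83 on the KO arrays with and without prebiotics, against 5.25 and 5.21 on the WT arrays. The KO array without prebiotics stood alone, well below the other 3 arrays. Without prebiotics KO was lower than WT by a log2 difference of -1.38, and with prebiotics the difference was 0.18; with 1 array in each group these values have no test. Without prebiotics 2 of the 9 genes, *Apoe* and *Apoa4*, were at least 2-fold lower in KO, beside 0.13% of all genes compared, and with prebiotics 0 were, beside 0.132%. *Apoe* only just missed this limit with prebiotics, with a log2 difference of -0.97 against -1.07 without. With WT by title, KO was above WT for 7 of the 9 genes with prebiotics, *Apob* by only 0.002, and for 2 without. Of all genes compared, 54.2% and 51.1% were above. The KO array without prebiotics also carried the *Apoa4* genotype difference of -0.60 (SE 0.44, unadjusted p = 0.214), which was 0.20 without that array. *Apoa1*, the main protein of high-density lipoprotein, had 4.20 and 3.53 on the KO arrays, against 4.03 and 3.63 on the WT arrays. Its order over the arrays was the same as that of *Apoa4*, but its KO minus WT difference was 0.03 (SE 0.24). *Apoc3*, which lies between these genes on chromosome 9, had 2.84 and 2.88 on the KO arrays, against 2.96 and 3.01 on the WT arrays, all close to background. Both KO values lay below both WT values, but the difference was small (KO minus WT -0.13, SE 0.12). *Apoc3* reached the filter limit only on the WT array titled without prebiotics, so it was tested through a WT value and its order adds little. With it, 2 of the 9 genes had both KO arrays below both WT arrays, *Apoe* being the other, and 0 had both above. Of the 13083 tested genes 14.0% had both KO arrays below both WT arrays and 16.2% had both above.

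*Apoc2*, the activator of lipoprotein lipase, had 4.71 and 3.49 on the KO arrays with and without prebiotics, against 3.98 and 3.18 on the WT arrays. The arrays with prebiotics were both higher than the arrays without, and within each diet the KO array was the higher one, both with WT by title. The KO minus WT difference was 0.52 (SE 0.41, unadjusted p = 0.241), with 0.73 with prebiotics and 0.31 without by title, and 1.53 and -0.49 with the WT pair exchanged. A second probe set, shared by *Apoc4* and *Apoc2*, had 2.95 and 3.01 on the KO arrays, against 2.91 and 2.79 on the WT arrays, and so stayed at background and did not follow the first. *Apoc1* had 2.92 and 2.68 on the KO arrays, against 2.78 and 3.07 on the WT arrays, and reached the filter limit on 1 array only, as did *Apoc3*. Apart from *Apoe*, the 9 genes had unadjusted p-values for genotype between 0.214 and 0.89.

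With prebiotics *Apoc2* rose by a log2 difference of 1.01 over both genotypes with WT by title (SE 0.15, limma adjusted p = 0.016), a 2.02-fold change and higher in both of 2 pairs. It was the only one of the 9 genes to pass, where 0.994% of the 13083 tested genes were called higher and 0.26% lower. With the WT pair exchanged its difference was 0.21 (adjusted p = 1), so this call rests on the titles of the WT arrays; 0 genes were then called and 1.3% had an unadjusted p under 0.05. Without the trend in eBayes the adjusted p was 0.0623 and among genes over the 75th percentile 0.0503. In the KO pair, whose labels do not conflict, *Apoc2* was 2.33-fold higher with prebiotics and *Apoa4* 3.02-fold, against 0.475% of 12216 genes at 2-fold or more higher. In the WT pair by title these genes were 1.74-fold and 1.03-fold higher, and 0.335% of 12223 genes reached 2-fold.

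The other genes did not pass for prebiotics. *Apoa4* had a difference of 0.82 (SE 0.29), *Apoa1* one of 0.53 (SE 0.14), *Mttp* one of 0.47 (SE 0.17), *Apobec1* one of 0.42 (SE 0.11) and *Apob* one of 0.27 (SE 0.07), with limma adjusted p-values between 0.10 and 0.24. For *Apoa4* the KO pair differed by 1.59 and the WT pair by 0.04, so its value rests on the KO array without prebiotics. *Apoe* had 0.24 (SE 0.13), and its remaining signal was 0.30 higher with prebiotics in KO and 0.19 higher in WT. *Apoc1* and *Apoc3* had -0.03 and -0.04. The median difference of the 9 genes was 0.42 and that of all tested genes 0.02. An unadjusted p under 0.05 was found for 6 of the 9 genes, beside 13.8% of all tested genes. Both arrays with prebiotics lay above both without for 6 of the 9 genes, the same ones (*Apob*, *Mttp*, *Apobec1*, *Apoa1*, *Apoa4* and *Apoc2*), a pattern that 25.5% of all tested genes showed. With the WT pair exchanged 1 of the 9, *Apoc1*, had it, beside 14.0% of all tested genes.

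**Figure D2:**
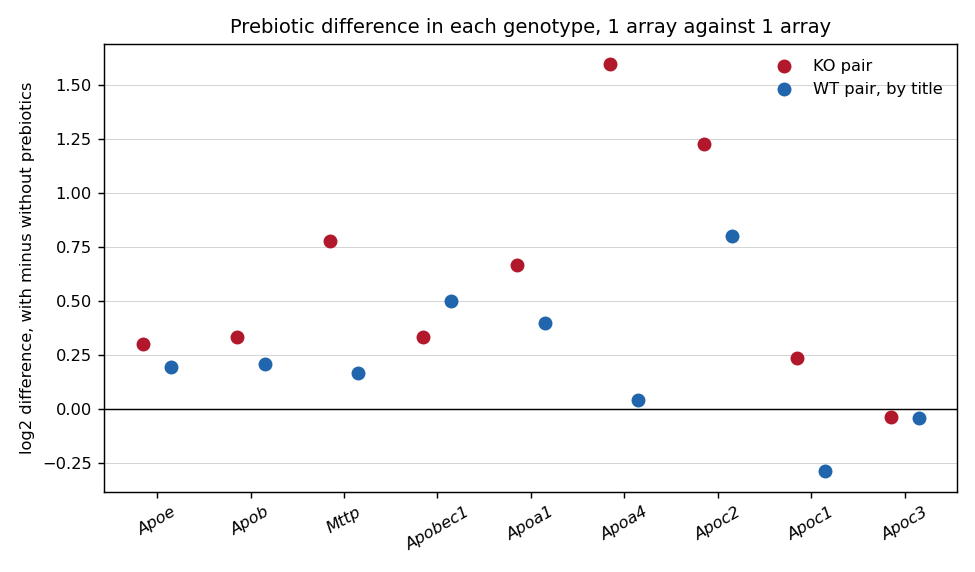
Log2 difference with minus without prebiotics (y axis) of the 9 genes (x axis) in the KO pair (red) and in the WT pair by title (blue); each point is 1 array against 1 array and has no error. Apoa4 stands at 1.59 in KO and 0.04 in WT, and Apoc2 at 1.22 and 0.80.

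The KO pair was higher with prebiotics for 8 of the 9 genes and the WT pair by title for 7, where 56.0% and 52.9% of all genes compared were above 0. *Mttp* differed by 0.78 in KO and 0.16 in WT, *Apoa1* by 0.66 and 0.40, and *Apob* by 0.33 and 0.21. *Apobec1* went the other way in size, with 0.33 in KO and 0.50 in WT. Whether these pairs differ was not tested, since 1 array per group leaves no error for it.

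Windows from 250 bases before to 50 bases after the gene's start were available for 7 of the 9 genes from RefSeq (GRCm38.p6), and are shown for the 4 whose window held either of the motifs searched. The letters CAAAGNNCA, found in sites of the enterocyte factors HNF4A and HNF4G, and AGGTCA, the half-site of nuclear receptors, were searched on both strands. Capitals mark the matches, which did not overlap one another. The windows of *Apob* and *Apobec1* are at chr12:7977427-7977726, plus strand, and chr6:122602395-122602694, minus strand. Those of *Apoa4* and *Apoc2* are at chr9:46240594-46240893, plus strand, and chr7:19677892-19678191, minus strand.
Apob: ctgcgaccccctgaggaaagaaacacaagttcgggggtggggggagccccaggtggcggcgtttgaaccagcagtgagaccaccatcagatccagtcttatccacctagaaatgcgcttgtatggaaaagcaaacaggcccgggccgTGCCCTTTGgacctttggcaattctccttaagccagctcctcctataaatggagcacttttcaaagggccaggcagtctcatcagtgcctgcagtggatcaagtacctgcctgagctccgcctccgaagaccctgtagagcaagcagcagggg
Apobec1: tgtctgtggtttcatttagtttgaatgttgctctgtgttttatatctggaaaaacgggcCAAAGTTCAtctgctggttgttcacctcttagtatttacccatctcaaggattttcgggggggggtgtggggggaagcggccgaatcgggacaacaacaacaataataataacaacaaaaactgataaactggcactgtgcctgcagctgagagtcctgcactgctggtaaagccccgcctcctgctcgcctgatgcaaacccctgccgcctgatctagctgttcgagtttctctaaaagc
Apoa4: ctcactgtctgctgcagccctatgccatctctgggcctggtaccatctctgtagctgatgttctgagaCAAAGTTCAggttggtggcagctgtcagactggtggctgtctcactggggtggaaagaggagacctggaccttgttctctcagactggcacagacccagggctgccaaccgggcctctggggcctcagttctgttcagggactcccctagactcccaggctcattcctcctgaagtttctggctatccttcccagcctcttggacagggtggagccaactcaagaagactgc
Apoc2: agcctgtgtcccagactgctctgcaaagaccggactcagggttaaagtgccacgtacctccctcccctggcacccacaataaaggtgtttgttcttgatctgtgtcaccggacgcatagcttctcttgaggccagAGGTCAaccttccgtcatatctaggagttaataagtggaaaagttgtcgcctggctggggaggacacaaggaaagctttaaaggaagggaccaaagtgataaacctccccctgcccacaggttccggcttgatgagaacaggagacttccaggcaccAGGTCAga

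Counted from the gene's start, the first motif began at position -191 in *Apobec1* and at -182 in *Apoa4*, with the same letters CAAAGTTCA, and at -103 in *Apob* on the opposite strand. It was found in 6.36% of all 32851 windows. Of the 7 genes the second occurred in *Apoc2* alone, at positions -115 and 42, and in 16.3% of all windows. The windows of *Apoa1*, *Mttp* and *Apoe* held neither string of letters, which says nothing of the factors themselves.

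Genes of fat uptake and chylomicron assembly were measured beside the apolipoproteins: 19 of 22 listed genes were tested, and with prebiotics 3 rose and 1 fell, with a median difference of 0.10, where 0.994% of all tested genes were called higher and 0.26% lower. *Tm6sf2*, which promotes lipid loading of lipoproteins, rose by 1.12 (SE 0.13, limma adjusted p = 0.005). *Prap1*, a secreted lipid-binding protein that in mice acts with the transfer protein, rose by 1.05 (SE 0.14, adjusted p = 0.01), and *Dgat1*, which makes triglyceride, by 0.85 (SE 0.12, adjusted p = 0.011). *Cd36*, a fatty acid transporter also found in endothelium and adipocytes, fell by 0.95 (SE 0.13, adjusted p = 0.0089). These 4 calls rest on the WT titles: with the pair exchanged the differences were 0.04, 0.18, -0.04 and 0.03. Without the trend *Dgat1* and *Prap1* missed the threshold (limma adjusted p = 0.0623 and 0.0527). *Dgat2* had -0.14 and *P4hb* -0.03. None of the 19 was called for genotype, and their median KO minus WT difference was 0.05, against 0.01 for all tested genes.

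**Figure D3:**
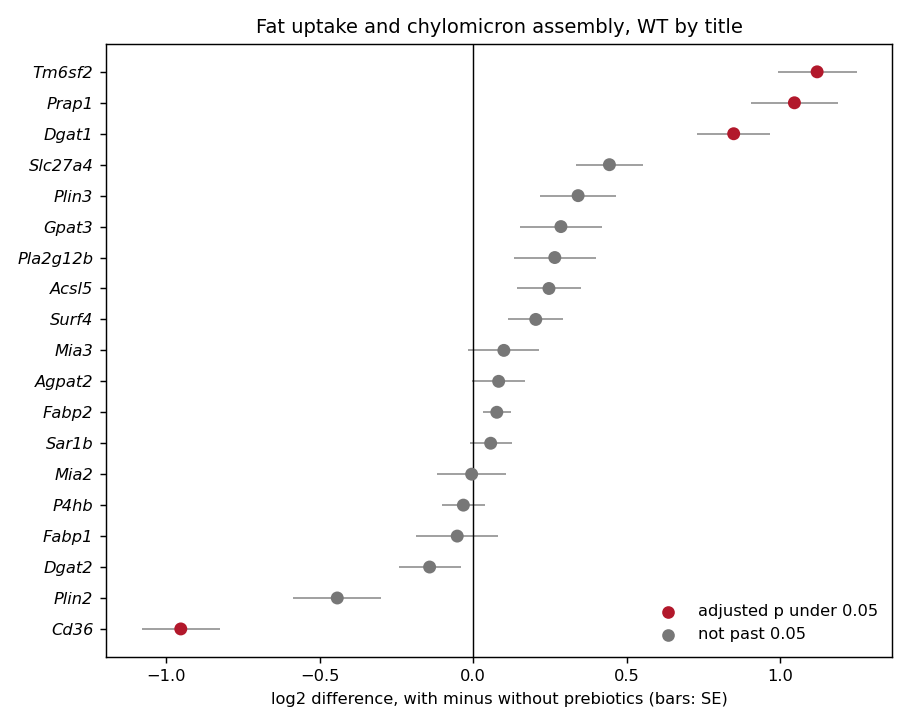
Log2 difference with minus without prebiotics over both genotypes, WT by title (x axis, bars for 1 SE from limma over 4 arrays), of the 19 tested genes of fat uptake and chylomicron assembly (y axis). Tm6sf2, Prap1 and Dgat1 lie at 0.85 or more and Cd36 at -0.95, in red for an adjusted p under 0.05.

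*Lpl*, the lipase that apoC-II activates, fell with prebiotics by 0.87 (SE 0.13, limma adjusted p = 0.014), with the highest of its probe sets. The call was lost with the mean over its probe sets (-0.51, adjusted p = 0.113), without the trend (adjusted p = 0.0719) and with the WT pair exchanged (-0.16). It was the only one of 6 tested lipolysis genes to pass. Its inhibitor *Angptl4* had 3.87 and 3.86 on the KO arrays with and without prebiotics, against 3.71 and 5.73 on the WT arrays, so that 1 WT array stood apart. *Lipa* had a prebiotic difference of -0.28, *Lipg* a genotype difference of 0.46 and *Angptl8* one of -0.10. An adipocyte marker moved with *Lpl* and *Cd36*: *Fabp4* fell by 1.09 (limma adjusted p = 0.011, and 0.0719 without the trend), 3 of 5 tested markers were lower, and the summed level was 7.29 and 7.66 on the KO arrays, against 7.31 and 8.21 on the WT arrays. *Cidec* had -0.38, *Retn* -0.27 and *Plin1* 0.13. The defining markers *Adipoq* and *Lep* did not pass the filter, and the part of adipocytes in these values was not tested.

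In the remaining pathway lists no gene passed for either comparison. For *Apob* mRNA editing all 8 listed genes were tested, and *A1cf*, the cofactor of *Apobec1*, had a prebiotic difference of 0.18 and a genotype difference of -0.03. The RNA-binding genes *Syncrip*, *Celf2*, *Khsrp* and *Hnrnpab* and the chaperone genes *Dnajb11* and *Bag4* had prebiotic differences between -0.17 and 0.13. Of 18 transcription factors of apolipoprotein genes 14 were tested, with a median prebiotic difference of 0.16 and 12 of 14 above 0. *Esrra* had 0.66 (limma adjusted p = 0.092), *Hnf4g* 0.41 (adjusted p = 0.097) and *Hnf4a* 0.24 (adjusted p = 0.16), while *Rxra* had 0.30 and *Foxo1* 0.25. By genotype *Ppargc1a* (0.30), *Gata6* (0.25) and *Nr1h3* (0.17) differed most. Of 12 genes of cholesterol handling 7 were tested, and *Npc1l1*, which takes up cholesterol at the brush border, had a prebiotic difference of 0.51, while *Scarb1* had -0.49, *Osbpl3* 0.42 and *Abca1* -0.27. *Pltp*, the phospholipid transfer protein of plasma, had a genotype difference of 0.73 (unadjusted p = 0.00193). Of 14 receptors 10 were tested, led by the apoE receptor *Lrp8* with a genotype difference of -0.31, with *Vldlr* at 0.26, *Stab1* at 0.23 and *Lrp6* at 0.18. *Sdc1* (0.28), *Sorl1* (0.20) and *Lrp5* (-0.13) had the larger prebiotic differences. Of 11 other apolipoproteins 5 were tested, among them *Clu* (clusterin, apoJ) with a genotype difference of -0.66 (unadjusted p = 0.0351) and *Apoa2* with 0.20, while *Apoo* had 0.25 and *Apod* 0.05. Genes beside the apolipoprotein clusters had 13 of 16 tested and a median genotype difference of 0.01, with *Tagln* at 0.34, *Zpr1* at 0.25, *Pcsk7* at 0.13 and *Sik3* at -0.03.

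Of 16 listed markers of small-intestinal enterocytes, 13 were tested and all 13 had a prebiotic difference above 0 over both genotypes, with WT by title, a median of 0.61 and 4 called: *Slc10a2* (2.65), *Alpi* (1.53), *Enpep* (1.37) and *Anpep* (0.93). *Naaladl1* had 1.18 and *Slc5a1* 0.49 without passing. Their summed level was 12.16 and 11.76 log2 units on the KO arrays with and without prebiotics, against 12.09 and 11.85 on the WT arrays. *Lct* and *Mme* did not pass the filter, and sucrase-isomaltase (*Sis*) had 4.61 and 2.79 on the KO arrays, against 3.23 and 3.03 on the WT arrays. Markers of caecal and colonic enterocytes were higher in 10 of 10, with a median of 0.41 and 6 called, where 0.994% of all tested genes were called higher. The 6 were *Slc5a8* (1.94), *Ceacam20* (0.67), *Car4* (0.59), *Slc26a3* (0.58), *Muc3* (0.35) and *Guca2a* (0.25), while *Krt20* had 0.21. Of these 6 only *Slc5a8* was still called without the trend, and *Car4* and *Ceacam20* were not called without the filter (limma adjusted p = 0.0568 and 0.0585). By genotype 7 of the 10 were higher and 3 lower in KO, with 0 called. The largest difference was that of *Ceacam20*, at -0.83 (limma unadjusted p = 0.0204). It had 6.97 and 6.39 on the KO arrays with and without prebiotics, against 7.88 and 7.13 on the WT arrays. *Anpep* lost its call without the trend, without the filter and among genes over the 75th percentile (limma adjusted p = 0.0599 to 0.165). General epithelial markers were higher with prebiotics in 7 of 10, with 0 called and a median of 0.08. They ran from *Tspan8* at 0.29, *Vil1* at 0.15, *Cdx1* at 0.13 and *Lgals4* at 0.12 to *Krt18* at -0.23 and *Krt8* at -0.07. By genotype 9 of 10 were lower in KO, with a median of -0.06 and 0 called. *Krt18* was lowest (-0.47, limma unadjusted p = 0.017), and the 1 higher was *Lgals4* (0.33, limma unadjusted p = 0.00731). The enterocyte calls too rest on the WT titles: with the pair exchanged *Slc10a2* had 0.03, *Alpi* -0.31 and *Slc5a8* -0.10. The part of enterocyte make-up in the apolipoprotein values was not tested. Liver is the other main source of these apolipoproteins, and the liver markers *Ahsg*, *Fga*, *Fgb* and *Serpina1a* lay below the filter limit on all arrays, with albumin (*Alb*) at 3.37 and 3.49 on the KO arrays, against 2.86 and 3.02 on the WT arrays. *Ttr* (8.30 to 8.75) and *Cps1* (6.22 to 7.15), also on the liver list, exceeded the 75th percentile on every array. Their prebiotic differences, 0.395 and 0.483 with WT by title, did not pass. Of 5 tested genes of the liver list 4 were higher with prebiotics and 1 lower, with a median of 0.395. The cells that these values come from were not tested. Only *Tat* was called (0.79, with a limma adjusted p of 0.0719 without the trend and 0.0588 without the filter). All 5 were higher in KO without passing, with *Cyp2e1* at 0.56, *Cps1* at 0.44 and *Ttr* at 0.05. Smooth muscle markers were higher in KO in 8 of 8 and fibroblast markers in 8 of 8, with medians of 0.32 and 0.40 and 0 called. Leaving out 1 WT array moved these medians: without the array titled with prebiotics they were 0.17 and 0.70, and without the other 0.54 and 0.18. The larger genotype differences were those of *Dcn* (0.77), *Col6a1* (0.65), *Cnn1* (0.64), *Fn1* (0.58), *Col1a2* (0.48) and *Des* (0.47), and by prebiotics *Col3a1* had 0.44 and *Pdgfra* -0.42. With prebiotics *Myh11* fell by 0.41, *Myl9* fell by 0.45 and *Col1a1* rose by 1.19, and of these only *Col1a1* was still called without the trend or without the filter. The part of these cells in the apolipoprotein values was not tested.

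The genes with the closest profiles over the 4 arrays, by distance after each gene's mean was taken off, differed from member to member. For *Apoc2* they were *Prap1* (0.11 log2 units), *Rhou* (0.15) and the brush border peptidase *Anpep* (0.24). For *Mttp* they were *Npc1l1* (0.04), *Tmlhe* (0.05) and *Metrnl* (0.06). For *Apoa4* the closest was the tubulin gene *Tubb2a* (0.23), followed by *Aldh1l1* (0.61) and *Ovol1* (0.62), and *Tubb2a* had 5.37 and 4.06 on the KO arrays, against 5.40 and 5.20 on the WT arrays. For *Apoa1* they were *Cth* (0.03), *Tbc1d20* (0.04) and *Pik3r2* (0.04), and for *Apobec1* *Slc44a3* (0.02), *Zswim6* (0.02) and *Dym* (0.03). These distances rest on 4 values per gene and are descriptions.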

How the data were processed

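RNA from caecal tissue was measured on 4 Affymetrix arrays, 1 per group. The deposited table holds RMA values in log2 units. The submitters' processing notes name RMA and the Affymetrix Expression Console, without versions. RMA compresses differences near background. The log base is taken from RMA, and the genome build is not given in the sources used here. Probe sets with 1 gene symbol were kept (23521 of 41345), and the one with the highest mean stood for its gene. A gene was tested if it reached its array's median of these probe sets, 2.99 to 3.01, on at least 1 array, which left 13083 genes; all 9 genes passed.

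Genotype was fitted alone (2 residual degrees of freedom), so that diet stays in its error term. Prebiotics were fitted with genotype (1 residual degree of freedom). There the residual is the difference between the KO pair and the WT pair in their prebiotic difference. Both fits used lmFit and trended eBayes (limma 3.58.1, R 4.3.3). Tests were two-sided, with Benjamini-Hochberg adjustment over all genes tested and calls at an adjusted p under 0.05. The fits were tried on simulated data with equal, independent noise for all genes. Those data held no diet effect for the genotype fit and no interaction for the prebiotic fit, so the trial does not check the p-values given here. With pooled RNA, p-values reflect only how these 4 samples vary, and the number of arrays limits the precision. Genes without a single-symbol probe set were not analysed here.

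The 9 genes and the gene lists were chosen with earlier results of these data known. All 9 were named. From each list the rule took up to 4 genes with the largest difference in each comparison and any called gene, and likeness was the Euclidean distance for genes spanning at least 0.5 log2 units. Other list genes given beside them, the neighbours and the motifs were chosen after their values were seen. Alternatives were 2 filters, the mean over probe sets, cyclic loess, median centring, eBayes without a trend, prebiotics as a block, each array left out and the WT pair exchanged.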

Additional observations from a re-analysis of the deposited data

Results flagged for a closer look

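For 5 of the 9 genes a difference had opposite signs in the 2 strata of 1 array pair each, and these contrasts between strata were not tested. The genotype difference, KO minus WT, was 0.175 with prebiotics and -1.379 without for *Apoa4*, 0.447 and -0.164 for *Mttp*, 0.169 and -0.099 for *Apoa1*, 0.139 and -0.386 for *Apoc1*, and 0.002 and -0.121 for *Apob*, with WT by title. The prebiotic difference was 0.235 in KO and -0.29 in WT by title for *Apoc1*. *Apoc1* and *Mttp* lie near background, and only for *Apoa4* did a difference reach 2-fold.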

How the results depend on the processing

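The diet labels of the WT arrays decide the diet results. Once these were exchanged, 0 genes were called higher and 0 lower for prebiotics by limma, against 130 and 34 by title (170 and 1799 at an unadjusted p under 0.05), and *Apoc2* had 0.21. Differences that turned were those of *Apobec1* (-0.084), *Apoc1* (0.26), *Apoc3* (0.002), *Cd36* (0.026), *Dgat1* (-0.041), *Alpi* (-0.31), *Slc26a3* (-0.043), *Ceacam20* (-0.082), *Guca2a* (-0.018), *Slc5a8* (-0.10), *Myh11* (0.11), *Myl9* (0.068), *Col1a1* (-0.11), *Fabp4* (0.30) and *Tat* (-0.063). In the KO pair alone *Apoc1* had 0.24. Counts at 2-fold became 22 higher and 41 lower in the WT pair, 48 lower for KO minus WT without prebiotics and 84 higher with them. For prebiotics the counts were 68 and 17 without the filter, 21 and 4 without the trend, 204 and 66 after median centring, and 52 lower after cyclic loess, and *Apoc2* kept 1.01 but missed the threshold among genes over the 75th percentile and without the trend. The cause was not tested. For genotype, with prebiotics as a block 8 genes were called higher and 4 lower, *Apoe* at -1.02 among them. Leaving out 1 array gave 0 to 4 genes higher and 0 lower, and *Apoe* ranged from -1.17 to -0.87. The 4 genes called higher came without the KO array without prebiotics. Over these fits the difference ranged from -0.225 to 0.106 for *Apob*, from -0.297 to 0.367 for *Apoa1*, from -1.399 to 0.195 for *Apoa4*, from -0.269 to 0.021 for *Apoc1*, from -0.091 to 1.132 for *Apoc2*, from -0.247 to 0.53 for *Mttp* and from -0.127 to 0.372 for *Apobec1*, so their directions rest on single arrays; *Apoc3* stayed below 0. The labels give no replicate numbers, so KO and WT arrays can be paired by diet alone, as in the fit with prebiotics as a block. No paired analysis was possible by replicate, because each group has 1 array. Values near background limit what *Apoc1*, *Apoc3*, *Mttp* and, in KO, *Apoe* can show.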
